A study of Homo sapiens with 2 samples.

Results

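NPPB, EDN1, PTHLH, VEGFA, GDF15 and STC2 encode secreted peptide hormones, growth factors and stress cytokines, and their messenger RNA was measured in a human liver cancer cell line with and without the compound A4368. The 6 genes were taken by symbol from the deposited expression table, where each had both values, out of 11511 genes with values. The genes were chosen by their measured FPKM values and ratios in these same libraries, so their levels are given as a description and carry no test. The cells were Hep3B, an established hepatocellular carcinoma line obtained from a cell bank and grown in DMEM with serum. The groups were 1 library of cells labelled as an untreated control and 1 library of cells treated with 25 µM A4368 for 24 h. A4368 is known here only by its code, and whether the control cells received its solvent is not given in the sources used here. With 1 library per group there are no replicates, so no value below has an error from repeated cultures, and each difference holds for this pair of libraries.

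Peptide hormones and cytokines of this kind are made as precursors with a signal sequence, secreted, and read by receptors on the same or other cells. NPPB encodes B-type natriuretic peptide, a hormone of the heart that lowers blood pressure and salt load, and EDN1 encodes endothelin-1, a strong vasoconstrictor. PTHLH encodes parathyroid hormone-related protein, the tumour product behind many cases of humoral hypercalcaemia of malignancy. VEGFA is the main angiogenic growth factor and a classical target of hypoxia-inducible factors. GDF15 is a distant member of the TGF-beta family that rises in cell stress and acts through a brainstem receptor on appetite, and STC2 encodes stanniocalcin-2, a glycoprotein induced by stress of the endoplasmic reticulum that inhibits the protease PAPP-A.

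Values are FPKM, that is, sequenced fragments corrected for transcript length and for library size, so levels can be set side by side between genes. Their depth is unknown, and no counting error can be given. Library ratios are log2((A4368 + 1)/(control + 1)) of the FPKM values, where the added 1 makes differences of weakly expressed genes look smaller. Counts and calls at the 1.5-fold or 2-fold limit use this log2 scale. Other folds in words are plain ratios of the FPKM values. Of 11238 genes whose mean level reached 1 FPKM, 2.12% were at least 1.5-fold lower with A4368 on the log2 scale and 1.08% at least 1.5-fold higher. At a 2-fold limit these shares were 0.436% and 0.116%. Of the same genes 48.0% were lower by any amount, and their median log2 ratio was 0.01. The 1.5-fold calls were 238 lower and 121 higher, and after a rescaling that equalised the library sums over all but the 50 highest genes they were 260 lower and 259 higher. That rescaling also raised the values of both libraries, so that the added 1 weighed less, and these effects were not separated. All 13 hepatocyte and hepatoma markers checked had values, summing to 13440 FPKM untreated and 12844 FPKM treated, with ALB, the albumin gene, at 9183 and 8930 FPKM. Among them APOH, an apolipoprotein gene, was at 374 and 238 FPKM and AFP at 368 and 295 FPKM, while the liver factor gene HNF4A was at 103 and 121 FPKM. None of 10 endothelial and none of 7 cardiac muscle markers had a value, although endothelium and heart are the classical sources of endothelin-1 and of the natriuretic peptide. Of 10 stellate cell and fibroblast markers 3 had values, summing to 19.9 FPKM untreated and 14.2 FPKM treated, and of 10 leukocyte markers 3 had values, summing to 50.1 and 39.9 FPKM. The defining markers COL1A1 and PTPRC had no value, and the lysozyme gene LYZ (17.6 and 9.48 FPKM) and the lumican gene LUM (17.9 and 11.9 FPKM) made most of the difference between the sums. Their part in the results below was not tested.

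Of the 6 hormone and cytokine genes, 3 were well below their control level in the treated library and 3 stayed near it. NPPB, EDN1 and PTHLH were at least 1.5-fold lower on the log2 scale, against the 2.12% of all genes given above, and none of the 6 was 1.5-fold higher. NPPB and EDN1 also passed the 2-fold limit on this scale. PTHLH, 2.05-fold lower in plain ratio, did not, because of the added 1. Because the genes were chosen with these ratios known, nothing is read from that count. Summed over NPPB, EDN1 and PTHLH, the level was 61.8 FPKM untreated and 22.0 FPKM treated. VEGFA and GDF15 were slightly lower and STC2 slightly higher, each within the 1.5-fold limit.

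**Figure D1:**
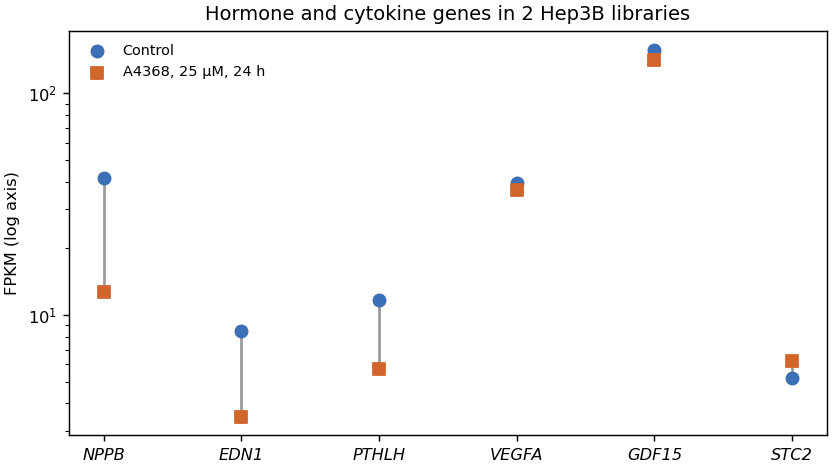
Level of each gene in FPKM on a log axis, with a circle for the control library and a square for the A4368 library joined by a line; there is 1 library per group and so no error bar. NPPB, EDN1 and PTHLH are separated by 2.05-fold to 3.26-fold, and the symbols of VEGFA, GDF15 and STC2 lie close together.

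The order of the levels was changed by this. In the control library GDF15 was highest, followed by NPPB, VEGFA, PTHLH, EDN1 and STC2. With A4368 the order was GDF15, VEGFA, NPPB, STC2, PTHLH and EDN1. NPPB and VEGFA were neighbours in the control, with VEGFA at 0.95 times NPPB, so that no order between them can be read there. In the treated library VEGFA was at 2.88 times NPPB. STC2 moved from 0.61 to 1.78 times the level of EDN1 and from 0.44 to 1.08 times that of PTHLH, so STC2 and PTHLH were close neighbours with A4368. GDF15 went from 3.79 to 11.1 times NPPB, while GDF15 itself differed by 1.11-fold.

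NPPB was at 41.5 FPKM in the control library and 12.7 FPKM in the A4368 library. The treated library was thus lower, at 30.6% of the control value, a log2 ratio of -1.63. In rank, NPPB stood 2321st of the 11238 genes in the control and 5976th with A4368. Of these genes 7 had a lower ratio. In a bulk library, fewer cells making NPPB and less RNA per cell cannot be told apart, and the same holds for the genes below. Among 3998 genes with a mean FPKM within 2-fold of that of NPPB, 2 had a lower ratio, and the central 95% of those genes lay between -0.48 and 0.40. NPPB has a single transcript in GENCODE release 29 that overlaps no other gene, and 0% of its 31-base words occur in transcripts of another gene.

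The measured rest of the natriuretic peptide system was lower by less. Of 13 genes listed, 5 had values and 4 passed the filter on low values, all 4 lower and none by 1.5-fold. Their median log2 ratio was -0.28, against 0.01 for all genes, of which 48.0% were lower. NPR1, the receptor of the atrial and B-type peptides, was at 1.05 FPKM untreated and 0.67 FPKM treated, below the filter. NPR2, the receptor of the C-type peptide, was at 8.44 and 6.36 FPKM. Both receptors form cyclic GMP, and the cyclic GMP phosphodiesterase genes PDE9A (19.2 and 15.2 FPKM) and PDE5A (2.18 and 1.69 FPKM) had lower values with A4368 too. FURIN, a protease that cuts many prohormones, was at 113 and 108 FPKM. The sister peptide genes NPPA and NPPC, the clearance receptor gene NPR3 and CORIN had no value and were not analysed here.

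EDN1 was at 8.53 FPKM in the control library and 3.49 FPKM in the A4368 library. It was therefore 2.44-fold lower in treated cells, a log2 ratio of -1.09, from a level already below the middle of the table, where the median gene was at 13.3 FPKM. In all, 29 of the 11238 genes had a lower ratio. Among 3664 genes within 2-fold of its mean FPKM, 9 did, and their central 95% lay between -0.57 and 0.50. The gene overlaps no other gene in GENCODE release 29 and shares 0% of its 31-base words with other genes.

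Endothelin-1 is cut from its precursor by endothelin-converting enzymes and acts on the receptors EDNRA and EDNRB. Of 8 listed genes of this system 3 had values, 2 lower and 1 higher, none by 1.5-fold on the log2 scale. EDNRB was at 1.40 FPKM untreated and 0.69 FPKM treated, a plain 2.04-fold difference that the pseudocount of 1 reduces to a log2 ratio of -0.51. After the rescaling, where the added 1 weighs less, it was -0.68 and past the 1.5-fold limit. The converting enzyme gene ECE1 was at 17.7 and 19.5 FPKM and its relative ECE2 at 7.04 and 5.23 FPKM. The messenger of ECE1 was thus 1.10-fold higher in the library where EDN1 was lower, and the enzyme itself was not measured. Without replicates a difference of this size cannot be told from the spread between cultures. EDN2, EDN3 and EDNRA had no value and were not analysed here.

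The 250 bases before the downstream start of EDN1 are shown because this gene was among the lower ones and because the stretch lies outside every exon of GENCODE release 29. The sequence is from RefSeq, GRCh38.p14, plus strand, chr6:12290111-12290360, and RefSeq gives 2 further starts for EDN1 upstream of it. Capitals mark, from left to right, a GATA core, a hypoxia response core and the TATA box core TATAAA, which begins 31 bases before the start. The GATA core and hypoxia response core are on the reverse strand, so that GATAA appears as its reverse complement TTATC and ACGTG as CACGT.
EDN1: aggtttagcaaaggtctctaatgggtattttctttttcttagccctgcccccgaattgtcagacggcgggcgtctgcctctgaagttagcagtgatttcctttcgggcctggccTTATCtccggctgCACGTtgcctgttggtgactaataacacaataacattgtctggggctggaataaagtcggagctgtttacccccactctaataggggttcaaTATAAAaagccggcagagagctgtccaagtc

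For PTHLH, GDF15 and STC2 the bases before the start overlap exons of other transcripts, and only 30 bases around a match are shown, for comparison with EDN1. They come from the same RefSeq table and build: PTHLH from chr12:27970034-27970063 on the minus strand, GDF15 from chr19:18386117-18386146 on the plus strand and STC2 from chr5:173328626-173328655 on the minus strand. Capitals mark an ETS core (CCGGAAG) in PTHLH, the TATA box core in GDF15 and 3 hypoxia response cores of the form GCGTG in STC2, 2 of them on the reverse strand.
PTHLH: ggaatcaactttCCGGAAGcaaccagccca
GDF15: aagtccggggacTATAAAggccggtccggc
STC2: catacaCACGCACGCaaacGCGTGgccgcc

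These matches were common or rare in the genome at large to different degrees. Among 35116 promoter windows of 250 bases, searched on both strands with overlapping matches allowed, 10.7% held TATAAA, 20.4% GATAA, 18.5% ACGTG, 32.2% GCGTG and 8.52% CCGGAAG. The TATA box core was present in EDN1, which was lower with A4368, and in GDF15, which stayed near its control level. An AP-1 site in the form TGANTCA, found in 6.57% of windows, and the core TGATGNAA of composite C/EBP and ATF sites, found in 3.14%, did not occur as these letters in the windows of the 4 genes with a promoter entry. Near forms were not searched for, so their absence is not shown. The EDN1 stretch above holds TGACTAA, unmarked, which differs from TGANTCA in a single letter. The TEAD core GGAATG, in 11.9% of windows, occurred once in GDF15 and once before another EDN1 start. Outside the stretches shown, GCGTG also occurred in PTHLH, and both hypoxia response cores occurred before the most upstream of the EDN1 starts. NPPB and VEGFA had no entry.

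PTHLH was at 11.8 FPKM in the control library and 5.75 FPKM in the A4368 library. The value with A4368 was 48.8% of that in the control, a log2 ratio of -0.92. Of all 11238 genes 59 had a lower ratio, and of 4245 genes within 2-fold of its mean FPKM 19 did, their central 95% lying between -0.56 and 0.46. With a pseudocount of 0.1 the log2 ratio of PTHLH was -1.02, past the 2-fold limit. PTHLH overlaps 1 antisense gene, and 7.77% of its 31-base words occur in transcripts of other genes. Whether reads were counted by strand is not given in the sources used here, so reads of the antisense gene cannot be told apart from its own.

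Parathyroid hormone-related protein signals through PTH1R and the G protein encoded by GNAS. Of 12 listed genes 5 had values, with 3 lower and 2 higher, or 2 lower and 3 higher after the rescaling, and none past 1.5-fold. GNAS was at 471 FPKM untreated and 413 FPKM treated. The G protein genes GNAQ (15.04 and 14.94 FPKM) and GNA11 (27.7 and 32.4 FPKM) and the arrestin gene ARRB2 (40.4 and 42.7 FPKM) were close between libraries, whereas the arrestin gene ARRB1 was at 3.75 and 2.57 FPKM. The receptor genes PTH1R and PTH2R and the related hormone genes PTH and PTH2 had no value and were not analysed here. Apart from ARRB1, 1.46-fold lower in plain ratio, the measured signalling genes were thus near their control levels in the library where PTHLH was lower.

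**Figure D2:**
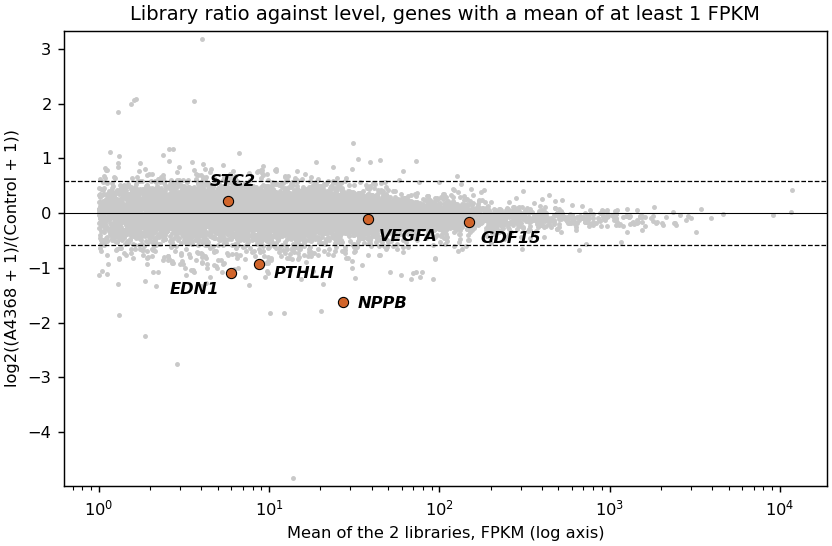
Library ratio, log2((A4368 + 1)/(Control + 1)), against the mean FPKM on a log axis for 11238 genes whose mean reached 1 FPKM (grey points), with the 6 hormone and cytokine genes in orange and dashed lines at 1.5-fold. NPPB, EDN1 and PTHLH lie below the lower line, and VEGFA, GDF15 and STC2 lie inside the bulk of the points.

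VEGFA was at 39.5 FPKM in the control library and 36.7 FPKM in the A4368 library. The treated value was 92.7% of the control, a log2 ratio of -0.11 as deposited and of -0.06 after the rescaling. Of 3303 genes within 2-fold of its mean FPKM, 915 had a lower ratio. The value sums over the splice forms of VEGFA, which has 32 transcripts in GENCODE release 29 and overlaps 1 antisense gene, so the forms of the protein could not be told apart.

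The relatives of VEGFA had both level and lower values. VEGFC, the lymphatic growth factor, was at 4.42 FPKM untreated and 2.66 FPKM treated. PGF, placental growth factor, was at 9.05 and 6.02 FPKM. Their log2 ratios of -0.57 and -0.52 fell just short of the 1.5-fold limit of -0.58, and that of VEGFC was past it, at -0.61, after the rescaling. VEGFB was 1.06-fold higher from 29.3 FPKM. Of the receptors, NRP1, a coreceptor of VEGFA, was at 29.2 and 20.8 FPKM and NRP2 at 0.92 and 0.88 FPKM, under the filter. FLT1, KDR and FLT4 had no value and were not analysed here. In the VEGF system as a whole, 12 of 17 listed genes passed the filter, with 8 lower and 4 higher. The median log2 ratio was -0.24, against 0.01 for all genes, of which 48.0% were lower.

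The oxygen-sensing genes that control VEGFA were within 1.5-fold of their control levels, apart from EGLN3. HIF1A, which encodes a hypoxia-inducible factor, was at 56.7 FPKM untreated and 50.2 FPKM treated, and its relative EPAS1 at 57.1 and 45.8 FPKM. Their partner ARNT was at 17.3 and 18.8 FPKM, the inhibitor HIF1AN at 6.29 and 7.31 FPKM, and VHL, which marks these factors for destruction, at 40.1 and 41.8 FPKM. Among the prolyl hydroxylases that sense oxygen, EGLN1 was at 47.7 and 37.5 FPKM and EGLN2 at 63.7 and 59.7 FPKM. The third of them, EGLN3, itself a hypoxia target, was past 1.5-fold, but at 1.66 and 0.57 FPKM it was close to the filter.

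Other hypoxia targets went in both directions. Of 24 listed genes 21 passed the filter, with 10 lower and 11 higher as deposited, or 9 and 12 after the rescaling, and a median log2 ratio of 0.02. VEGFA lay near that middle. The glycolytic gene HK2 was 1.55-fold lower (18.4 and 11.9 FPKM), a log2 ratio of -0.59 that fell inside the limit, at -0.57, after the rescaling. BNIP3L, a mitophagy receptor gene, was 1.86-fold higher (6.34 and 11.8 FPKM). The abundant glycolysis genes ALDOA (777 and 727 FPKM), ENO1 (752 and 674 FPKM), LDHA (316 and 313 FPKM) and PGK1 (80.9 and 75.5 FPKM) were close between libraries.

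GDF15 was at 158 FPKM in the control library and 142 FPKM in the A4368 library. It was the most abundant of the 6 genes in both, ranking 537th and 583rd of 11238 genes. The treated value was 89.8% of the control, a log2 ratio of -0.15, or -0.10 after the rescaling. Of 1009 genes within 2-fold of its mean FPKM 245 had a lower ratio, and at 100 FPKM or more the median log2 ratio of all genes was -0.07. A microRNA gene, MIR3189, lies within GDF15, and 0.62% of the 31-base words of GDF15 occur in transcripts of other genes.

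The stress factors known to switch GDF15 on had slightly higher values than in the control. All 5 such regulators reported here were higher as deposited and after the rescaling, none by 1.5-fold. Their median log2 ratio was 0.18, against 0.01 for all genes, of which 48.0% were lower. Without replicates, differences of these sizes cannot be told from the spread between cultures. ATF4, the factor of the integrated stress response, was at 293 FPKM untreated and 319 FPKM treated. DDIT3, also called CHOP, was at 37.1 and 43.4 FPKM, ATF3 at 8.07 and 9.26 FPKM and CEBPB at 9.12 and 12.1 FPKM. EGR1, an immediate early factor, was at 7.56 and 8.55 FPKM. GFRAL and RET, which encode the GDF15 receptor and its signalling partner, had no value and were not analysed here.

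Targets of ATF4 were higher as well, in the library where GDF15 was not, and ATF3, CEBPB and DDIT3 count in this list too. Of 22 listed targets with values 21 were higher and 1, SLC3A2 (129 and 122 FPKM), was lower. The median log2 ratio was 0.34 against 0.01 for all genes, of which 48.0% were lower. The 3 that were at least 1.5-fold higher, against 1.08% of all genes, were CHAC1, DDIT4 and ASNS. CHAC1, a glutathione-degrading enzyme gene, was at 29.8 and 59.3 FPKM and DDIT4, an inhibitor of mTORC1, at 49.7 and 96.9 FPKM. The asparagine synthetase gene ASNS was at 45.7 and 70.3 FPKM. PCK2, which encodes mitochondrial PEP carboxykinase, had a log2 ratio of 0.55, or 0.61 and past the limit after the rescaling. NUPR1, a small stress protein gene, was at 255 and 309 FPKM, and the serine synthesis gene PSAT1 at 153 and 200 FPKM. INHBE, a secreted activin subunit gene, was at 99.7 and 101 FPKM and so resembled GDF15 in staying level. This list and its direction were known from earlier work on these libraries, and it was not tested here.

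STC2 was at 5.18 FPKM in the control library and 6.22 FPKM in the A4368 library. It was the one gene of the 6 with a higher value in treated cells, 1.20-fold, a log2 ratio of 0.22. Of 3581 genes within 2-fold of its mean FPKM, 697 had a higher ratio, and the central 95% of them lay between -0.58 and 0.52. Without replicates a difference of this size cannot be told from the spread between cultures. STC2 overlaps no other gene in GENCODE release 29 and shares 0% of its 31-base words.

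Stanniocalcin-2 acts on the growth factor axis of IGF by blocking the proteases that cleave IGF-binding proteins. Of 9 listed genes 4 had values, 3 lower and 1 higher, none by 1.5-fold on the log2 scale. IGF2 was level at 218 FPKM untreated and 219 FPKM treated. The receptor genes IGF1R (7.95 and 6.93 FPKM) and IGF2R (25.3 and 24.0 FPKM) were slightly lower. IGFBP4, a binding protein that PAPP-A cleaves, was at 1.79 and 1.18 FPKM, a plain 1.52-fold difference and a log2 ratio of -0.36. STC1, the paralog, and the protease genes PAPPA and PAPPA2 had no value and were not analysed here.

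**Figure D3:**
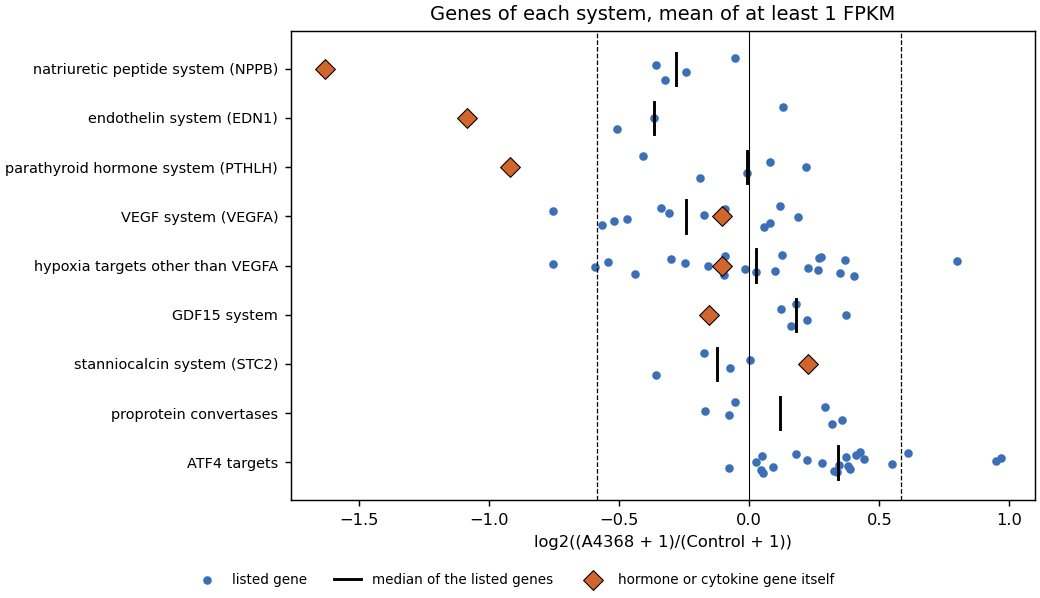
Library ratios of the listed genes of each system whose mean reached 1 FPKM (blue points), their median (black bar) and the hormone or cytokine gene itself (orange diamond), with dashed lines at 1.5-fold. NPPB, EDN1 and PTHLH lie to the left of every listed gene of their own system, VEGFA and GDF15 lie near 0, and the ATF4 targets lie mostly to the right.

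Several of these precursors are cut by proprotein convertases. Of 10 listed genes of this family and its inhibitor 6 passed the filter, with 3 lower and 3 higher and none past 1.5-fold. FURIN, given above, was the most abundant. PCSK6 was at 23.3 FPKM untreated and 22.0 FPKM treated and PCSK5 at 8.23 and 7.20 FPKM, whereas MBTPS1, the site-1 protease gene, was at 19.5 and 24.0 FPKM.

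Other secreted hormones, growth factors and cytokines were more often lower than higher in treated cells. Of 100 listed genes 53 passed the filter, with 39 lower and 14 higher, or 38 and 15 after the rescaling. The median log2 ratio was -0.24 against 0.01 for all genes, of which 48.0% were lower. On the log2 scale 11 were at least 1.5-fold lower and 2 at least 1.5-fold higher, against 2.12% and 1.08% of all genes. The list was chosen with earlier results of these data known, and these counts were not tested. In plain ratio TGFB3 (1.76-fold), CSF1 (1.75-fold), FGF19 (1.54-fold) and KNG1 (1.52-fold) were past 1.5-fold lower too, but the added 1 kept them inside the limit. NPPB had a lower log2 ratio than all 53. EDN1 stood below all of them on this scale too, although TGFB2 had the larger plain fold, and PTHLH was passed by TGFB2 and BMP2.

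The 11 lower genes included several developmental ligands. TGFB2, a TGF-beta ligand, was 3.15-fold lower but low in both libraries (3.36 and 1.07 FPKM). BMP2, a bone morphogenetic protein, was 2.18-fold lower (18.2 and 8.35 FPKM), the largest plain fold among these genes above 5 FPKM in the control. The activin subunit gene INHBB was at 20.4 and 11.7 FPKM, the Notch ligand gene JAG1 at 56.3 and 32.9 FPKM and the WNT antagonist gene DKK1 at 806 and 506 FPKM. The matricellular genes CTGF (121 and 67.2 FPKM) and CYR61 (26.3 and 16.0 FPKM) belonged here too. IL18, an interleukin of the IL-1 family, was at 39.7 and 24.1 FPKM and the cytokine gene IL32 at 53.1 and 34.7 FPKM. ANGPTL8, a regulator of lipoprotein lipase, was at 23.0 and 13.5 FPKM and the IGF-binding protein gene IGFBP3 at 19.5 and 12.6 FPKM. The log2 ratios of IL32 and IGFBP3, -0.60 and -0.59, lay next to the limit of -0.58. After the rescaling they were inside it, at -0.56 and -0.57, while CSF1, a macrophage growth factor gene, was past it at -0.62 (2.48 and 1.42 FPKM).

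The higher genes were IGFBP1 and METRN. IGFBP1, which encodes another IGF-binding protein and is a stress-responsive gene of liver, was 2.42-fold higher at 1.09 and 2.64 FPKM. METRN, a neurotrophic factor gene, was at 9.40 and 15.3 FPKM. Apart from DKK1, which was the second by mean level, the most abundant other secreted factors were within 1.5-fold between libraries: the neurotensin gene NTS at 1290 and 1239 FPKM, MIF at 441 and 515 FPKM, the midkine gene MDK at 429 and 376 FPKM and the angiotensinogen gene AGT at 331 and 310 FPKM. A peptide hormone gene could thus be abundant in these cells and nearly level, as NTS was.

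**Figure D4:**
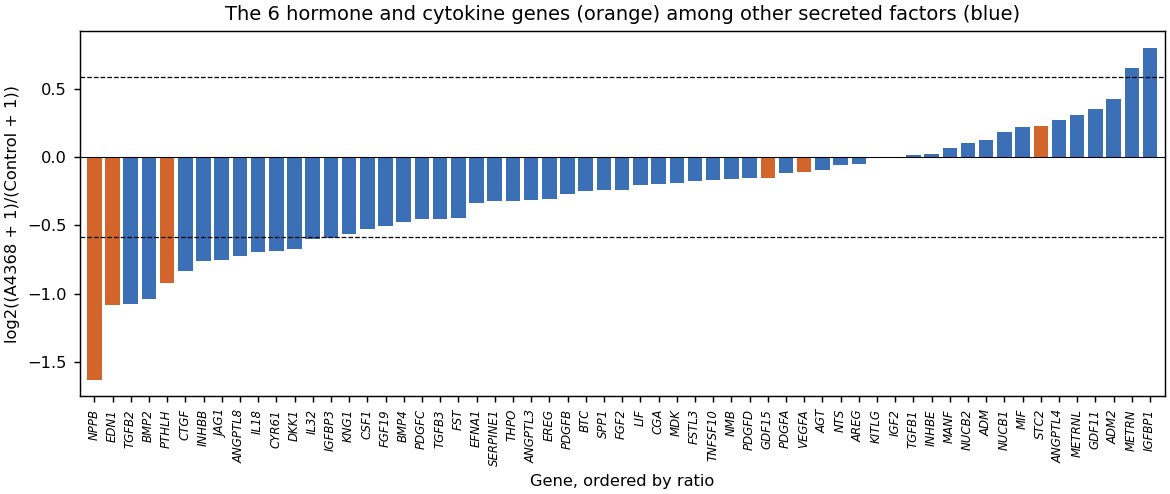
Library ratios, log2((A4368 + 1)/(Control + 1)), of the 6 hormone and cytokine genes (orange) and 53 other secreted factors (blue), ordered from lowest to highest, with dashed lines at 1.5-fold. NPPB and EDN1 are at the low end, PTHLH is near it, VEGFA and GDF15 are near 0 and STC2 is among the higher genes.

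Most genes for AP-1, CREB, SRF, SMAD, GATA and TEAD transcription factors, with ETS and NF-kappaB members added, were within 1.5-fold of their control levels. Of 31 listed genes 27 passed the filter, 18 lower and 9 higher, or 16 and 11 after the rescaling. The median log2 ratio was -0.12, against 0.01 for all genes, of which 48.0% were lower. At least 1.5-fold lower were 2 and none was 1.5-fold higher, against 2.12% and 1.08% of all genes. ETV4, an ETS factor, was 2.88-fold lower (11.3 and 3.93 FPKM). TEAD2, a DNA-binding partner of YAP, was 1.75-fold lower (30.04 and 17.18 FPKM). Short of the limit, WWTR1 (11.5 and 7.81 FPKM) and ETS2 (35.3 and 24.5 FPKM) both had log2 ratios of -0.51. The 4 most abundant of the genes inside the limit were all on the higher side. GATA4, which drives NPPB in the heart, was at 41.8 and 43.8 FPKM, JUND at 55.8 and 65.6 FPKM, JUNB at 49.8 and 50.7 FPKM and ATF2 at 34.0 and 35.8 FPKM. Messenger levels say nothing of the activity of these factors, which was not measured.

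The genes most like each hormone gene were found by the distance between their log2(FPKM + 1) values over the 2 libraries. For NPPB these were the chemokine genes CXCL1 (29.8 and 11.5 FPKM) and CXCL8 (44.8 and 19.1 FPKM) and TEAD2, at distances of 0.49, 0.56 and 0.61, so that no gene came close. EDN1 was nearest to another chemokine gene, CXCL6 (8.64 and 3.74 FPKM, distance 0.08), and then to RNASE4 and NUAK2, both at 0.19. PTHLH was nearest to C6orf132 (distance 0.13), SP8 (0.16) and PIK3AP1 (0.17). The other genes had many close neighbours: VEGFA had PPIL2, KDM1A and EIF2S1 within 0.02, GDF15 had ANP32A, TMEM141 and PTTG1IP within 0.04, and STC2 had VPS33B, PHF21A and PIM1 within 0.03. With 2 libraries such a distance describes a level and a ratio and no more.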

How the data were processed

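RNA-seq of 1 control and 1 A4368 library was used as a table of gene symbols and values that the authors deposited. No unit stands in its header. Because Cufflinks appears in the submitters' processing notes, next to TopHat2 2.0.12 and Bowtie2 2.2.3, these deposited values were taken as FPKM. The notes name the build hg19. Annotation, depth, strand and any filter on low genes: not given in the sources used here. Both values were present for 11511 symbols of 24302 lines. Genes under a mean of 1 FPKM were left out, which kept 11238, and ratios had a pseudocount of 1. With 1 library per group no test was made.

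The genes described and the 11 gene lists were chosen with earlier results of these data known, and 1 listed gene is not reported here. From each list, all genes past 1.5-fold on the log2 scale were named. The ligands, receptors and enzymes of the 6 systems and up to 4 further genes by mean level were named too. For each of the 6 genes the 3 most alike were named, leaving out symbols that join 2 genes. Promoters are RefSeq, GRCh38.p14, matched by symbol for 4 of the 6. Shared sequence and overlaps used GENCODE release 29. Since this build differs from hg19, only promoter coordinates are given. The ratio procedure was run on simulated data, with planted differences well past the limit and little noise. That run checks the code only and says nothing about the error of the ratios here. Python 3.11.15, numpy 2.4.6 and pandas 2.3.3 were used.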

Additional observations from a re-analysis of the deposited data

How the results depend on the processing

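The alternatives were pseudocounts of 0.1 and 5, no filter, a filter at 5 FPKM, centring, rescaling without the 50 highest genes and a 2-fold limit. Of 64 values recomputed, 57 kept their direction and stayed within the spread of ratios across genes of like level or, for counts, within 1.5 times. Many of these could not have moved. The mean of each of the 6 genes was above 5 FPKM, so neither filter setting could change its ratio. Centring shifted all ratios by the same 0.003. The 57 is thus no measure of how firm the ratios are. NPPB, EDN1 and PTHLH were at least 1.5-fold lower under every pseudocount and scaling tried, and the filters left their ratios unchanged by construction. With a pseudocount of 5 the log2 ratio of NPPB was -1.39, that of EDN1 -0.67 and that of PTHLH -0.64. Of all listed genes, 15 were at least 1.5-fold lower and 6 higher as reported. These counts were 9 and 2 with the pseudocount of 5, and 3 and 0 at the 2-fold limit. Over all 11238 genes the counts were 238 and 121 as reported (2.12% and 1.08%). They were 78 and 20 with the pseudocount of 5 (0.694% and 0.178%), and 49 and 13 at the 2-fold limit (0.436% and 0.116%). The fall was thus shared by genes at large, and nothing is read from it about the lists. A larger pseudocount shrinks the ratios of low genes by construction. The ranges over the settings were -0.11 to -0.06 for VEGFA, -0.15 to -0.10 for GDF15 and 0.14 to 0.29 for STC2. No paired analysis was possible because each group has 1 library, and no replicate could be left out. For genes near 1 FPKM, such as EDNRB, NPR1 and EGLN3, depth, pseudocount and the lack of replicates all limit the values.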

Other observations

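The other ligand genes were grouped by family after their values were seen, and no difference between families was tested. For comparison, 48.0% of all genes were lower with A4368. Of 8 ligands of the BMP, TGF-beta, activin and GDF families whose mean reached 1 FPKM, 5 were lower and 3 higher, with a median log2 ratio of -0.47. TGFB1 (22.2 FPKM untreated, 22.5 FPKM treated) was level beside the lower TGFB2, and BMP4 was at 15.75 and 11.04 FPKM. Of 7 PDGF and VEGF ligands other than VEGFA 6 were lower, PDGFC being at 20.2 and 14.5 FPKM and PDGFA at 38.0 and 35.0 FPKM. The 3 ligands of the EGF receptor with values were all lower by small amounts, with EREG, the epiregulin gene, at 37.5 and 30.1 FPKM. The 4 genes of interleukins, LIF and colony-stimulating factors were all lower, with a median of -0.56 and CSF1 at 2.48 and 1.42 FPKM.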
